A study of Mus musculus with 15 samples.

Results

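The lysosomal enzymes and membrane proteins described here are 40 listed mouse genes, measured in primary mouse hepatocytes. A gene was taken when a probe set of the array carried its symbol alone, and its probe set with the highest mean signal over all 15 arrays stood for it. A probe set was found for 39 of the 40 genes, and Cd63, a lysosomal tetraspanin, is named only. The whole table names 18193 genes, and 16294 of them passed the filter on dim signals, a log2 signal of 4 or more in at least 3 arrays. All 39 lysosomal genes passed it.

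The hepatocytes came from C57BL/6 mice and were cultured in serum-free medium. Of 5 adenovirus groups with 3 arrays each, one overexpressed wild-type IRE1a, one overexpressed S724A IRE1a, and one expressed EGFP, all for 48 hours and without further treatment. The other groups carried a hairpin against IRE1a or a control hairpin for 72 hours and then received glucagon for 4 hours. IRE1a, the product of Ern1, is a kinase and endoribonuclease of the endoplasmic reticulum that senses unfolded protein and splices Xbp1 mRNA, and S724A replaces a serine of its kinase domain with alanine. Each hairpin group rests on 1 hairpin, and neither virus nor glucagon doses are given in the labels. The series text calls the 3 experiments independent and does not say whether they came from separate animals, so p-values measure the spread between these arrays.

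Lysosomes break down proteins, glycans, lipids and glycogen that arrive by endocytosis and autophagy. Most of their soluble enzymes are made in the endoplasmic reticulum, receive a mannose 6-phosphate tag in the Golgi, and are carried onward by mannose 6-phosphate receptors, while glycosylated proteins such as LAMP1 line the lysosomal membrane. Many of these genes carry the CLEAR element, an E-box with the core CACGTG that the transcription factor TFEB binds, near their start sites.

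Promoters were searched for that core, which reads the same on both strands, in the 250 bases before each start site in RefSeq (GRCm38.p6). Of the 40 genes 34 had a window, and 13 of these 34 (38.2%) held the core, against 6.86% of all 27025 genes with a window. The core GACGTG, a type bound by XBP1, was searched on both strands and stood before 1 of the 34 genes, Cd63, against 5.87% of all genes. The promoters of 3 genes are shown as examples that carry the core more than once and belong to genes with large differences below. Lamp1 and Igf2r were lower with both IRE1a proteins, and Gla was higher in the control hairpin group. Cln3, Ctsd and Mcoln1 also carry the core more than once and were higher in that group, but are not shown. Each promoter shown is written 5′ to 3′ along the transcript, with CACGTG in capitals. Lamp1 lies on the plus strand (chr8:13158911-13159160), and Igf2r (chr17:12769707-12769956) and Gla (chrX:134601006-134601255) lie on the minus strand.
Lamp1: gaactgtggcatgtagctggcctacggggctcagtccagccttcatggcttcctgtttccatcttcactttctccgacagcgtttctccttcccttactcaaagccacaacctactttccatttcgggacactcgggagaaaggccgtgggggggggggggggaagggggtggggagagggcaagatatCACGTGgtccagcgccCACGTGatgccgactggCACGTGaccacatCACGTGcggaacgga
Igf2r: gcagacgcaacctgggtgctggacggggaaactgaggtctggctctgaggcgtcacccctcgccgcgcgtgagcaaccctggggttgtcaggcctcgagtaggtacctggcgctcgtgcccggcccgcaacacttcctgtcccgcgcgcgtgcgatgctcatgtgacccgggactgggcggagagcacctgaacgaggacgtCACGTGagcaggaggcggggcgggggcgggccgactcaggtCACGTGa
Gla: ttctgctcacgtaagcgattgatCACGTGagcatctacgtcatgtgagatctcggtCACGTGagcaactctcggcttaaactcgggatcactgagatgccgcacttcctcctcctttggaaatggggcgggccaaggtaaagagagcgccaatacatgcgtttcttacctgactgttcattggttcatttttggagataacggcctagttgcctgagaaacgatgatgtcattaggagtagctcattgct
The Lamp1 window held 4 matches, beginning 61, 45, 28 and 15 bases before the start site. In Igf2r the 2 matches began 48 and 7 bases before it, and in Gla the 2 matches began 227 and 194 bases before it. A match describes these letters and is not evidence of binding.

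The groups were checked on 2 genes. Ern1 read 7.60, 7.44 and 7.51 on the IRE1a hairpin arrays and 8.89, 8.96 and 9.10 on the control hairpin arrays, a difference of -1.47 ± 0.19 (SE; limma, adjusted p = 0.00293). In the overexpression groups the Ern1 probe set did not pass the threshold, with 0.12 ± 0.19 for wild-type IRE1a against EGFP (adjusted p = 0.775) and 0.46 ± 0.19 for S724A IRE1a against EGFP (adjusted p = 0.159, or 0.0215 with replicate numbers as a block). The labels do not say whether the viruses carry the stretch of Ern1 that this probe set reads, so overexpression is taken from the labels and was not checked here. Xbp1 rose with wild-type IRE1a by 0.63 ± 0.11 and with S724A IRE1a by 0.52 ± 0.11 (adjusted p = 0.00309 and 0.0137). Hepatocyte markers (Alb, Ttr, Apoa1 and 7 others) averaged log2 signals between 11.5 and 12.0 on every array. Macrophage markers, another cell type rich in lysosomes, averaged between 5.69 and 6.19, and 4 of 14 (C1qb, Timd4, Cd163 and Ptprc) did not pass the filter. In such bulk samples fewer cells of a type and less RNA per cell cannot be told apart.

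Wild-type IRE1a was first set against EGFP. Of the 39 lysosomal genes, 9 fell and 0 rose with wild-type IRE1a (adjusted p under 0.05), so 23.1% were past the threshold, against 7.67% of all genes tested. Among all genes 5.08% rose and 2.59% fell, and with each array centred on its median the same comparison gave 608 rises and 619 falls in place of 828 and 422. The 9 came from every role: Lamp1 among the membrane proteins, the proteases Tpp1 and Ctsb, the glycosidases Hexa and Gaa, the glycosaminoglycan sulfatases Arsb and Galns, the sphingolipid activator precursor Psap, and the receptor Igf2r. The genes were chosen with earlier results of these data known, those of Lamp1 and Tpp1 among them. Shares of the listed genes, here and with S724A IRE1a, are thus descriptions and may partly reflect that choice. The median lysosomal gene differed by -0.18, against 0.00 over all genes, with 26 negative and 13 positive (33.3%, against 50.5% of all genes).

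**Figure D1:**
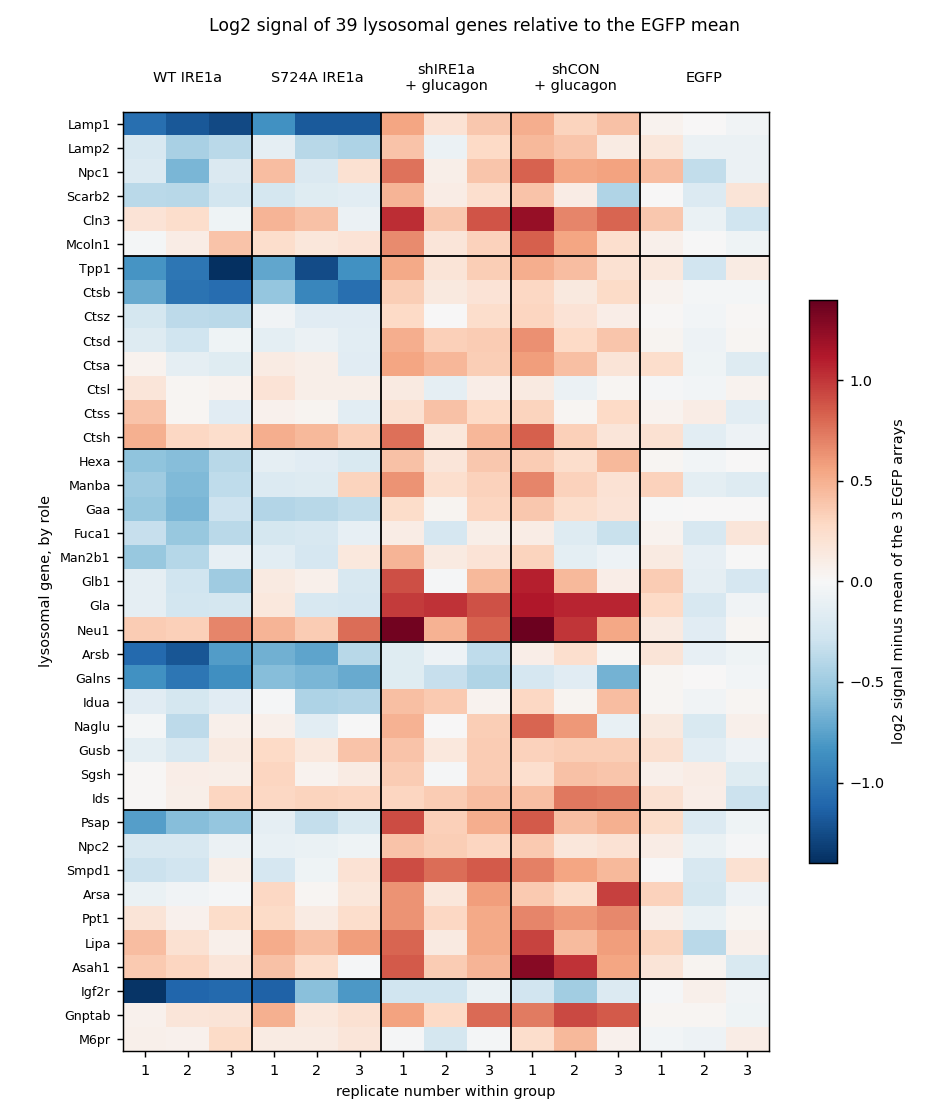
Log2 signal of the 39 lysosomal genes (rows, grouped by role from membrane proteins at the top to mannose 6-phosphate targeting at the bottom) on each of the 15 arrays (columns), minus the gene's mean on the 3 EGFP arrays. Lamp1, Tpp1, Ctsb, Arsb, Galns and Igf2r are low on all 6 IRE1a arrays, and most rows are high on the hairpin arrays.

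LAMP1, a glycosylated protein that makes up much of the lysosomal membrane, had the lowest adjusted p of the set. Lamp1 read 11.05, 10.92 and 10.84 on the wild-type IRE1a arrays, 11.26, 10.93 and 10.93 on the S724A IRE1a arrays, and 12.15, 12.11 and 12.06 on the EGFP arrays. Every IRE1a array lay below every EGFP array, by more than the spread within any of the 3 groups. The difference from EGFP was -1.17 ± 0.12 with wild-type IRE1a (2.25-fold lower, adjusted p = 2.07e-05) and -1.07 ± 0.12 with S724A IRE1a (2.09-fold lower, adjusted p = 5.37e-05). Its partner Lamp2, which also serves chaperone-mediated autophagy, read 11.59, 11.36 and 11.44 with wild-type IRE1a, 11.68, 11.41 and 11.38 with S724A IRE1a, and 11.97, 11.73 and 11.73 with EGFP. These groups did not overlap with EGFP either, but the differences of -0.35 ± 0.14 and -0.32 ± 0.14 did not pass the threshold (adjusted p = 0.163 and 0.191).

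Igf2r, the large mannose 6-phosphate receptor that delivers newly made enzymes and also takes up IGF2, read 7.27, 7.53 and 7.55 with wild-type IRE1a, 7.50, 8.05 and 7.83 with S724A IRE1a, and 8.62, 8.71 and 8.59 with EGFP. Both IRE1a groups lay wholly below EGFP, and 1 S724A IRE1a array lay among the wild-type IRE1a arrays. Igf2r fell by 1.19 ± 0.14 with wild-type IRE1a (2.28-fold lower, adjusted p = 7.11e-05) and by 0.84 ± 0.14 with S724A IRE1a (1.80-fold lower, adjusted p = 0.00145). The other members of this targeting step did not pass the threshold: M6pr, the small receptor, differed by 0.14 ± 0.11 and 0.13 ± 0.11, and Gnptab, a subunit of the enzyme that makes the tag, by 0.13 ± 0.13 and 0.29 ± 0.13.

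Among the proteases, Tpp1, a tripeptidyl peptidase whose loss causes a neuronal ceroid lipofuscinosis, read 10.86, 10.67 and 10.17 with wild-type IRE1a, 10.96, 10.43 and 10.84 with S724A IRE1a, and 11.84, 11.42 and 11.80 with EGFP. Ctsb, the cysteine protease cathepsin B, read 11.78, 11.46 and 11.43 with wild-type IRE1a, 11.95, 11.58 and 11.44 with S724A IRE1a, and 12.54, 12.47 and 12.47 with EGFP. In both genes the IRE1a groups overlapped each other and lay below EGFP. Tpp1 fell by 1.12 ± 0.19 with wild-type IRE1a (adjusted p = 0.00172) and by 0.94 ± 0.19 with S724A IRE1a (adjusted p = 0.00696). Ctsb fell by 0.93 ± 0.13 with wild-type IRE1a (adjusted p = 0.000439) and by 0.84 ± 0.13 with S724A IRE1a (adjusted p = 0.00124). The other 6 cathepsins did not fall or rise past the threshold in either comparison; cathepsin L (Ctsl) differed by 0.08 ± 0.10 with wild-type IRE1a and the aspartic protease cathepsin D (Ctsd) by -0.17 ± 0.11. Ctss, a cathepsin of macrophages, lay between 4.22 and 4.78 on all 15 arrays, close to the filter.

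Of 7 enzymes of glycosaminoglycan breakdown 2 fell in both comparisons, the sulfatases Arsb and Galns; the sulfatases Ids (0.13 and 0.30) and Sgsh (0.06 and 0.16) were positive and not called. Arsb, which removes sulfate from dermatan and chondroitin sulfate, read 8.08, 7.98 and 8.39 with wild-type IRE1a, 8.51, 8.44 and 8.79 with S724A IRE1a, and 9.36, 9.06 and 9.11 with EGFP. Galns, which acts on keratan and chondroitin sulfate, read 7.08, 6.92 and 7.07 with wild-type IRE1a, 7.33, 7.29 and 7.22 with S724A IRE1a, and 7.96, 7.93 and 7.89 with EGFP. In both genes the 3 groups did not overlap: wild-type IRE1a was lowest, S724A IRE1a lay between, and EGFP was highest. Arsb fell by 1.02 ± 0.14 with wild-type IRE1a (adjusted p = 0.000257) and by 0.60 ± 0.14 with S724A IRE1a (adjusted p = 0.0170). Galns fell by 0.90 ± 0.12 with wild-type IRE1a (adjusted p = 0.000318) and by 0.65 ± 0.12 with S724A IRE1a (adjusted p = 0.00519). With the mean of all probe sets of a gene, which takes in dimmer ones, Arsb differed by -0.57 and -0.35 and Galns by -0.42 and -0.40, all past the threshold. The S724A IRE1a call of Arsb was lost without S724A IRE1a replicate 1 or 2 or EGFP replicate 1 (adjusted p up to 0.0867).

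**Figure D2:**
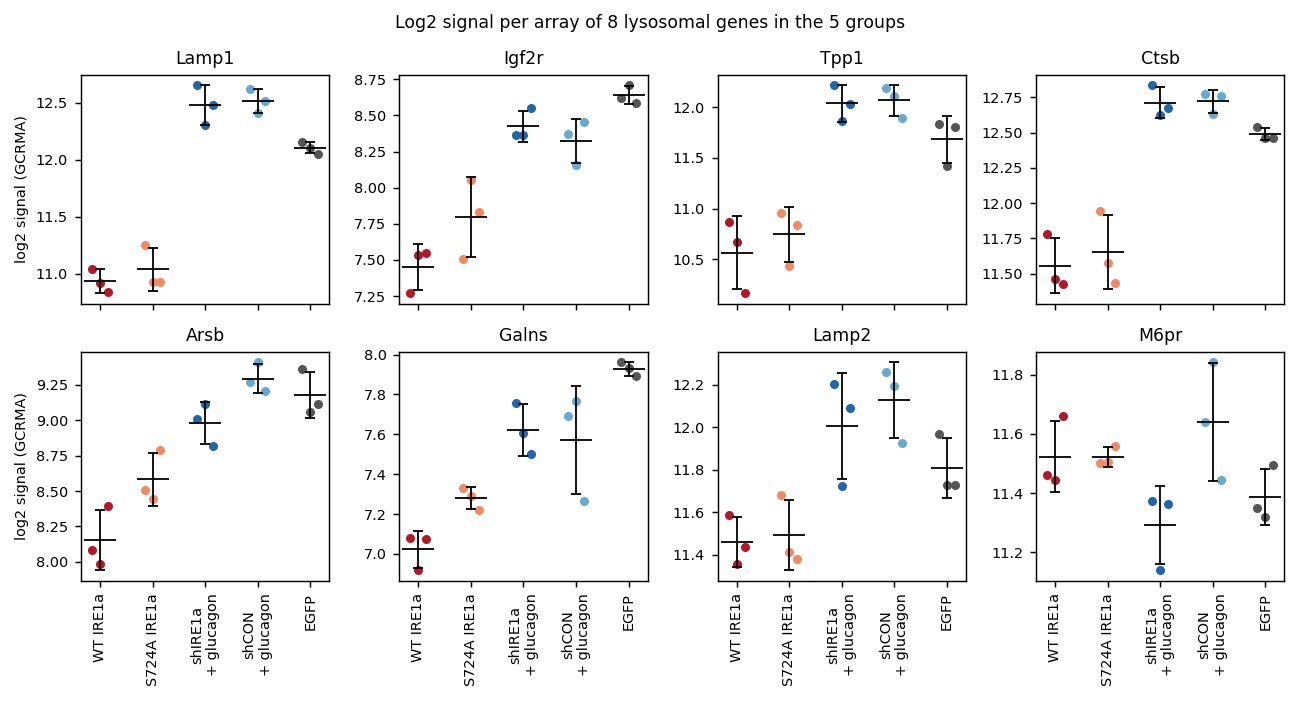
Log2 signal (GCRMA) on each array of 8 lysosomal genes in the 5 groups; points are arrays, and the horizontal line with bars is the mean ± SD of 3 arrays. The first 6 genes are those with the largest falls with wild-type IRE1a, Lamp2 is the partner of Lamp1, and M6pr had the lowest unadjusted p between the hairpins; each panel has its own vertical range, which does not begin at 0.

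Smaller falls with wild-type IRE1a were seen in Psap (-0.64 ± 0.16, adjusted p = 0.0251), the source of the saposins, in Hexa (-0.52 ± 0.10, adjusted p = 0.00406), the alpha subunit of beta-hexosaminidase, and in Gaa (-0.49 ± 0.11, adjusted p = 0.0102), which degrades lysosomal glycogen. The Psap call was lost without wild-type IRE1a replicate 1 or 2 or EGFP replicate 1 or 3 (adjusted p up to 0.0965), and the Gaa call without wild-type IRE1a replicate 2 or with the 6 arrays of the comparison alone (adjusted p up to 0.0532). Wild-type IRE1a arrays lay wholly below EGFP arrays for 15 of the 39 genes and wholly above for 3, against 10.9% and 15.8% of all genes. Replicate numbers paired the arrays within the 48-hour groups, and with them as a block 12 lysosomal genes fell and 2 rose, against 15.6% of all genes called (4.99% fell and 10.6% rose). The added falls were the cathepsin Ctsz, the mannosidase Manba and the fucosidase Fuca1 (adjusted p = 0.0313, 0.0452 and 0.0258 with the block), and the added rises were the cathepsin Ctsh and the sialidase Neu1 (adjusted p = 0.0491 and 0.0448 with the block).

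Against the same EGFP arrays, S724A IRE1a gave 7 falls and 0 rises among the 39 lysosomal genes (17.9%), against 6.12% of all genes called (3.87% rose and 2.25% fell; 437 rises and 517 falls with arrays centred on their medians, in place of 631 and 366). Besides the 6 genes described with their signals above, Gaa fell by 0.38 ± 0.11 (adjusted p = 0.0484), a call lost in 8 of 14 alternatives (adjusted p up to 0.142): each of the 6 fits without an S724A IRE1a or EGFP array, the mean of all probe sets, and trended and robust variances. The median lysosomal gene differed by -0.02, against -0.01 over all genes, with 23 negative and 16 positive (41%, against 48.2% of all genes). S724A IRE1a arrays lay wholly below EGFP for 11 genes and wholly above for 9, against 16.8% and 16.5% of all genes. With the replicate block 3 rises were added, in Ctsh, Neu1 and the acid lipase Lipa (adjusted p = 0.0209, 0.0247 and 0.0223 with the block), among 14.4% of all genes called (8.89% rose and 5.52% fell). Since wild-type IRE1a and S724A IRE1a were set against the same 3 EGFP arrays, likeness between these comparisons is partly shared.

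**Figure D3:**
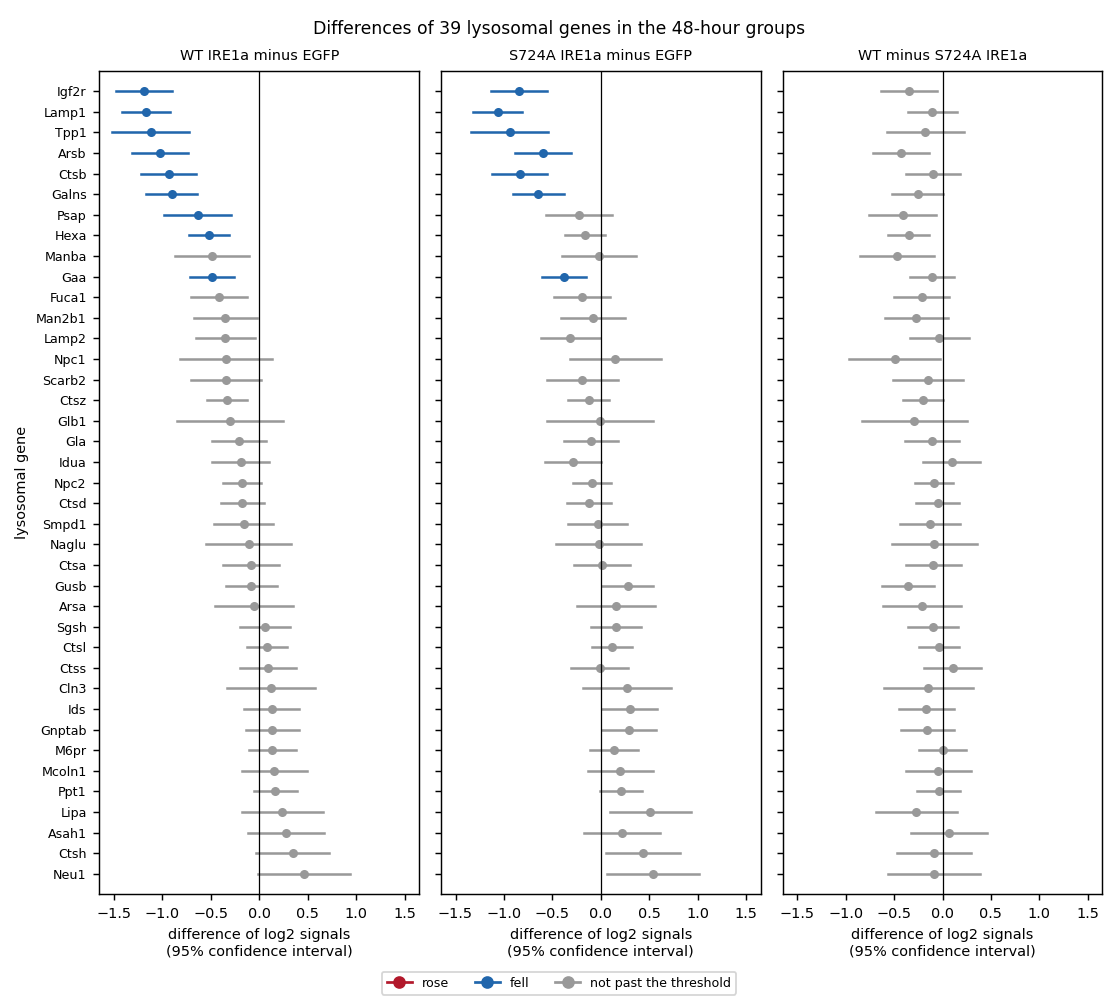
Differences of log2 signal with 95% confidence intervals for the 39 lysosomal genes, ordered by the wild-type IRE1a minus EGFP difference, for wild-type IRE1a against EGFP at left, S724A IRE1a against EGFP in the middle, and the difference of the IRE1a proteins at right. Blue marks 9 falls at left and 7 in the middle, no gene is coloured at right, and most points at right lie just below 0.

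The direct comparison of wild-type IRE1a with S724A IRE1a had 0 of 39 lysosomal genes past the threshold, against 0 of all 16294 genes (0%) in limma. At an unadjusted p under 0.05 there were 7 lysosomal genes and 997 genes in all, and with the replicate block 0 lysosomal genes and 2 genes in all (0.0123%). The signs were uneven: 35 of the 39 differences were negative, against 7018 of all 16294 genes, with a median of -0.13 against 0.03 over all genes. Of the 39 genes 24 were negative in each of the 3 same-numbered pairs, against 2344 of all 16294 genes. Wild-type IRE1a arrays lay wholly below S724A IRE1a arrays for 10 genes and wholly above for 0, against 4.69% and 8.56% of all genes.

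The differences in that comparison were small. All 8 glycosidases were negative, from -0.08 (Neu1) to -0.47 (Manba), and so were the 6 membrane proteins, from -0.03 (Lamp2) to -0.50 (Npc1, a cholesterol exporter). Arsb differed by -0.43 (95% confidence interval -0.72 to -0.14) and Psap by -0.41 (-0.76 to -0.07), with adjusted p = 0.801 for both. Lamp1 differed by -0.10 (-0.36 to 0.15) and Ctsb by -0.10 (-0.38 to 0.19), so these intervals hold both no difference and a modest one.

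Knockdown of IRE1a under glucagon was not accompanied by a called lysosomal gene. Between the IRE1a hairpin and the control hairpin 0 of 39 lysosomal genes passed the threshold in limma, against 0.233% of all genes (0.0491% rose and 0.184% fell). At an unadjusted p under 0.05 there were 3 of 39 lysosomal genes (M6pr, Arsb and Gnptab), against 1260 of 16294 genes in all. With the replicate block 0 lysosomal genes were called, against 1.23% of all genes. Differences ran from -0.38 ± 0.18 for the acid ceramidase Asah1 to 0.28 ± 0.14 for the acid sphingomyelinase Smpd1. M6pr differed by -0.35 (95% confidence interval -0.59 to -0.10, adjusted p = 0.432), with the 3 IRE1a hairpin arrays at 11.37, 11.14 and 11.36 and the 3 control hairpin arrays at 11.64, 11.84 and 11.44. These M6pr values did not overlap. IRE1a hairpin arrays lay wholly below control hairpin arrays for 3 lysosomal genes and wholly above for 1, against 5.49% and 6.05% of all genes.

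Genes that fell with both IRE1a proteins did not pass the threshold between the hairpins. Lamp1 read 12.66, 12.31 and 12.48 with the IRE1a hairpin and 12.62, 12.41 and 12.52 with the control hairpin, a difference of -0.03 (95% confidence interval -0.28 to 0.22). Intervals were -0.19 to 0.39 for Igf2r, -0.43 to 0.37 for Tpp1, -0.29 to 0.27 for Ctsb and -0.21 to 0.31 for Galns, while Arsb had -0.31 (-0.60 to -0.02, adjusted p = 0.613). The 2 probe sets of Tpp1 disagreed here: the dimmer one, which does not stand for the gene in these counts, differed by -0.88 ± 0.22 in a fit over probe sets, outside the interval of the brighter one. The sign of the whole set was not stable: 12 of 39 differences were positive, against 27 without IRE1a hairpin replicate 2 and 23 without control hairpin replicate 1. With all 15 arrays in the fit, 54.9% of all genes were positive.

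The control hairpin group with glucagon stood higher than EGFP for most lysosomal genes. Virus, time with virus and glucagon differ together between these groups and cannot be told apart, and the EGFP arrays are those used above. Of the 39 genes, 14 rose and 0 fell (35.9%), against 16.1% of all genes called (9.34% rose and 6.74% fell; with quantile normalisation 1164 rose and 1417 fell, in place of 1522 and 1098). With quantile normalisation 10 lysosomal genes rose and 2 fell, Galns and Igf2r. The median lysosomal gene differed by 0.40, against -0.05 over all genes, and 36 of 39 were positive (92.3%, against 42.8% of all genes). Control hairpin arrays lay wholly above EGFP for 23 genes and wholly below for 2 (Galns and Igf2r), against 16.6% and 19.6% of all genes. The count was 5 without control hairpin replicate 1, 7 without EGFP replicate 2 and 8 without EGFP replicate 3.

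**Figure D4:**
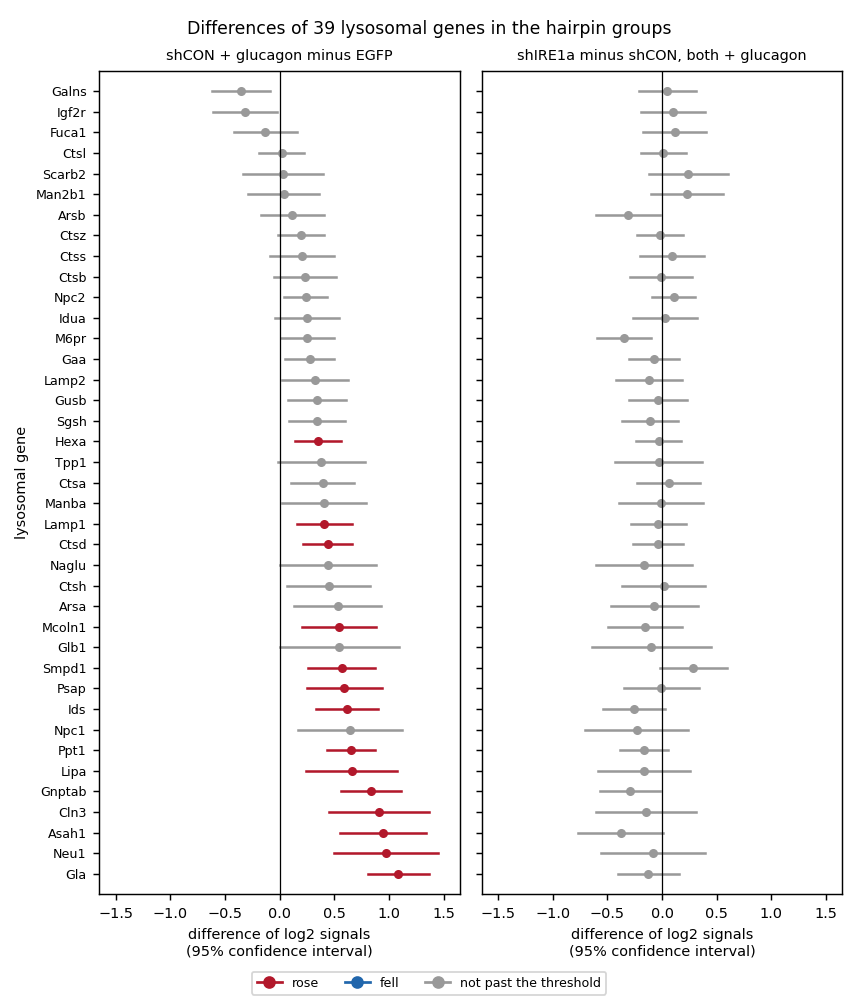
Differences of log2 signal with 95% confidence intervals for the 39 lysosomal genes, ordered by the control hairpin with glucagon minus EGFP difference (left), and the IRE1a hairpin minus the control hairpin at right. Red marks 14 rises at left, and at right no gene is coloured and the points lie between -0.38 and 0.28.

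Gla, the alpha-galactosidase that is deficient in Fabry disease, read 9.89, 9.83 and 9.84 in the control hairpin group and 9.05, 8.54 and 8.71 with EGFP. Neu1, the sialidase that works in a complex with Ctsa and Glb1, read 9.70, 9.33 and 8.87 in the control hairpin group and 8.45, 8.17 and 8.36 with EGFP. All control hairpin arrays were above all EGFP arrays in both genes, with replicates tight for Gla and wide for Neu1. Gla rose by 1.09 ± 0.13 (adjusted p = 0.000157) and Neu1 by 0.97 ± 0.22 (adjusted p = 0.00953). With the mean of all probe sets Gla differed by 0.55 and Neu1 by 0.35, the Neu1 call being lost (adjusted p = 0.0757), as it also was without control hairpin replicate 1.

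Asah1, which cleaves ceramide, read 11.15, 10.89 and 10.43 in the control hairpin group and 10.06, 9.91 and 9.66 with EGFP. Cln3, a membrane protein mutated in juvenile ceroid lipofuscinosis, read 9.39, 8.85 and 8.98 in the control hairpin group and 8.54, 8.07 and 7.89 with EGFP. Neither pair of groups overlapped. Asah1 rose by 0.94 ± 0.18 (adjusted p = 0.00388) and Cln3 by 0.91 ± 0.21 (adjusted p = 0.0110), and Cln3 lost its call without control hairpin replicate 1 or EGFP replicate 3 and differed by 0.56 with the mean of all probe sets.

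By role (3 to 8 genes each), the lipid and sphingolipid enzymes had the most rises, 5 of 7, where 9.34% of all genes rose. They were Asah1, Lipa (0.66 ± 0.20), the palmitoyl thioesterase Ppt1 (0.65 ± 0.10), Psap (0.59 ± 0.16) and Smpd1 (0.57 ± 0.14). Of 6 membrane proteins 3 rose, Cln3, the cation channel Mcoln1 (0.54 ± 0.16) and Lamp1 (0.41 ± 0.12), and of 8 glycosidases 3 rose, Gla, Neu1 and Hexa (0.35 ± 0.10). A single gene rose in each remaining role: Gnptab (0.84 ± 0.13) of 3 targeting genes, the iduronate sulfatase Ids (0.62 ± 0.13) of 7 glycosaminoglycan enzymes, and Ctsd (0.44 ± 0.11) of 8 proteases. Adjusted p of these 10 further genes lay between 0.000956 (Gnptab) and 0.0341 (Lipa). With the mean of all probe sets the Ids and Smpd1 calls were lost (0.19 and 0.38), Ppt1 stood at 0.35, and the calls of Asah1, Gla, Gnptab and Ppt1 held in all 14 alternatives. Hexa, Lamp1, Lipa, Mcoln1, Psap, Smpd1 and Ctsd each lost the call in at least 1 fit without an array, among them the fit without control hairpin replicate 1 (adjusted p up to 0.142 there). Not past the threshold were Igf2r at -0.32 ± 0.14 and Galns at -0.35 ± 0.12 (adjusted p = 0.125 and 0.0636).

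Markers of other cells were set beside these counts. Of 10 macrophage markers tested 0 passed the threshold in any of the 5 comparisons, and with the replicate block Cd68, itself a lysosomal membrane protein of macrophages, was called a rise with wild-type IRE1a (0.41, adjusted p = 0.0124). Their summed signals had log2 values of 12.16 to 12.25 with wild-type IRE1a, 11.95 to 12.16 with S724A IRE1a, 11.23 to 11.75 with the control hairpin and 11.74 to 11.94 with EGFP, sums that the brightest markers carry. Their mean log2 signals were 5.79 to 6.04 with wild-type IRE1a, 5.78 to 5.89 with S724A IRE1a, 5.72 to 5.82 with the control hairpin and 5.89 to 5.96 with EGFP. With S724A IRE1a the sum was thus above EGFP and the mean below it, with 7 of 10 markers negative, against 6 of 10 with wild-type IRE1a and 9 of 10 with the control hairpin. The summed hepatocyte markers had log2 values of 16.05 to 16.24 in the control hairpin group and 16.27 to 16.30 with EGFP. In control hairpin against EGFP, the hepatocyte markers Serpinc1 (-0.95) and Apoa2 (-0.70) fell and Tat (1.15) rose, 1 of 9 endothelial markers rose (Cdh5) and 1 fell (Tek), 2 of 5 stellate markers fell (Reln and Acta2), and 0 of 3 cholangiocyte markers were called. Called or not, 7 of 9 endothelial markers were negative (median -0.37), and 5 lay wholly below EGFP and 1 wholly above. Negative too were 5 of 5 stellate, 2 of 3 cholangiocyte and 5 of 10 hepatocyte markers, against 9323 of all 16294 genes. With wild-type IRE1a against EGFP the hepatocyte factor Hnf4a rose (0.74, adjusted p = 0.0237), and no endothelial, stellate or cholangiocyte marker was called. The part of these shifts in the lysosomal values was not tested.

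Further lysosomal lists were set beside the 39 genes. Among 28 other hydrolases and activators, 5 fell (17.9%) and 0 rose with wild-type IRE1a, against 2.59% and 5.08% of all genes. Plbd2 (-0.87 ± 0.11), Grn (-0.69 ± 0.11), Epdr1 (-1.09 ± 0.21) and Ifi30 (-0.75 ± 0.16) had the lowest p. With S724A IRE1a 5 also fell (17.9%) and 0 rose, against 2.25% and 3.87% of all genes. These 5 included Plbd2 (-0.75 ± 0.11) and the ganglioside activator Gm2a (-0.58 ± 0.14). Among 34 other membrane proteins and transporters, 4 rose (11.8%) and 3 fell (8.82%) with wild-type IRE1a, against 5.08% and 2.59% of all genes. With S724A IRE1a 3 rose (8.82%) and 2 fell (5.88%), against 3.87% and 2.25% of all genes. The falls included Hgsnat, which acetylates heparan sulfate (-1.60 ± 0.10 with wild-type IRE1a and -1.78 ± 0.10 with S724A IRE1a), and Sidt2, a lysosomal RNA transporter (-1.21 ± 0.11 with S724A IRE1a). Sidt2 was also lower with wild-type IRE1a, with a mean of 9.12 against 10.12 with EGFP. The rises included Tmem106b (0.95 ± 0.15 with wild-type IRE1a and 0.58 ± 0.15 with S724A IRE1a) and Vamp7, a SNARE of lysosome fusion (0.78 ± 0.12 and 0.63 ± 0.12). With the replicate block the S724A IRE1a count of these membrane proteins became 4 rises and 4 falls, against 8.89% and 5.52% of all genes. Hgsnat was known from earlier results of these data when the lists were written.

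The proton pump and the regulators were counted next. With wild-type IRE1a 29.4% of the V-ATPase subunits and 14.3% of the regulators were called, against 7.67% of all genes. With wild-type IRE1a, 2 of 17 V-ATPase subunits rose and 3 fell, including Atp6v1h (-1.17 ± 0.14). With S724A IRE1a 0 rose and 2 fell (11.8%), against 3.87% and 2.25% of all genes, or 1 rose and 3 fell with the replicate block. The 2 falls without the block were Atp6v1h (-1.26 ± 0.14) and Atp6v1c1 (-0.59 ± 0.10). Atp6v1c1 was also lower with wild-type IRE1a, with a mean of 10.7 against 11.2 with EGFP. Of 21 regulators Lamtor2, part of the Ragulator complex (0.91 ± 0.11), and Lamtor4 (0.42 ± 0.09) rose and Rptor (-0.51 ± 0.10) fell with wild-type IRE1a. With S724A IRE1a, Lamtor2 rose (0.76 ± 0.11) and Rptor fell (-0.52 ± 0.10), 4.76% of the regulators each way, against 3.87% and 2.25% of all genes. Of 29 sorting genes Rab9 rose with wild-type IRE1a (0.41 ± 0.09), or 3.45% against 5.08% of all genes, and 0 were called with S724A IRE1a. The replicate block gave 4 rises and 1 fall with wild-type IRE1a, against 10.6% and 4.99% of all genes. With S724A IRE1a it gave 0 rises and 1 fall, against 8.89% and 5.52% of all genes. Those last shares also apply to the V-ATPase count with the block. None of these 5 lists had a call between the IRE1a proteins or between the hairpins in limma, apart from Slc15a4 between the hairpins with the replicate block (-0.79, adjusted p = 0.0149).

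In control hairpin against EGFP, where 9.34% of all genes rose and 6.74% fell, most calls in these lists were rises and most genes were not called: 7 of 28 hydrolases (1 fell), 13 of 34 membrane proteins (0 fell), 8 of 17 V-ATPase subunits (0 fell), 5 of 21 regulators (2 fell) and 9 of 29 sorting genes (0 fell) rose. Among the regulators, Flcn and its partner Fnip1, which act on the Rag GTPases, rose by 1.11 ± 0.13 and 1.10 ± 0.16 and Rragc by 0.65 ± 0.12, while Tfeb, the factor that binds the CLEAR element, fell by 0.47 ± 0.09 (adjusted p = 0.00381). Hps4 (1.13 ± 0.18) and Ap3d1 (0.78 ± 0.13), which serve lysosome-related organelles, led the sorting genes.

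**Figure D5:**
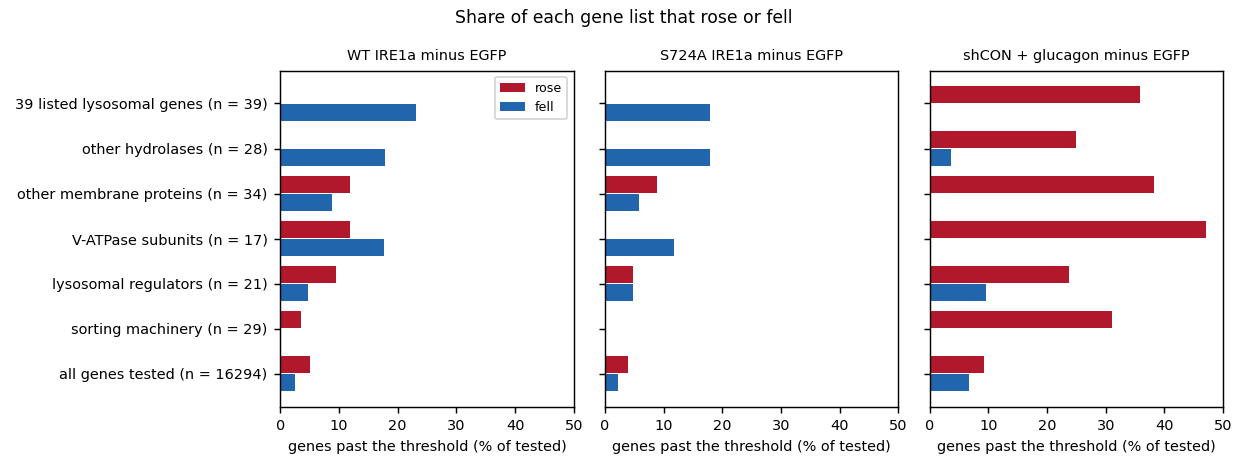
Share of the tested genes of each list that rose (red) or fell (blue), in percent of the genes tested, for the IRE1a proteins against EGFP (wild-type, then S724A) and for the control hairpin with glucagon against EGFP. The 39 lysosomal genes show falls alone in the IRE1a panels (23.1% and 17.9%) and rises alone in the hairpin panel (35.9%), with all genes tested at the bottom of each panel.

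The E-box core was set against these calls as a description. Of the 9 genes that fell with wild-type IRE1a, 7 had a promoter window and 3 held the core (Lamp1, Igf2r and Gaa). Of the 14 that rose in the control hairpin group, 13 had a window and 5 held it, Lamp1 and Gla among them. These shares, 42.9% and 38.5%, are close to the 38.2% of all listed lysosomal genes with a window.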

How the data were processed

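The samples are 15 Affymetrix expression arrays of hepatocyte RNA, 3 in each of 5 groups named by the labels. The deposited values are log2 signals, 1 for each of 45101 probe sets; the scale was read from the values, with array medians of 5.69 to 5.83. Per the submitters' processing notes, the authors used GCRMA, which corrects background by probe sequence and normalises by quantiles; which version they ran was not given in the sources used here. Quantile scaling can hide a shift common to all genes, and the number of arrays limits precision. The 64 control probe sets were dropped. Genes were named by the 34945 others that have a single symbol in the platform annotation, with symbols updated by gene number; 932 with several symbols and 9160 with none were not used here. Of the 39 genes, 29 had several probe sets, and signals of different probe sets are not compared with each other.

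One mean per group was estimated from the 15 arrays in R 4.3.3 with limma 3.58.1 (lmFit, contrasts, eBayes, 10 residual degrees of freedom), and p-values were adjusted over 16294 genes by the Benjamini-Hochberg method within each of 5 comparisons. Differences are in log2 signal, in the order in which each comparison is named, ± SE, with a threshold of 0.05. The fit was tested on simulated data with independent noise on each array, which do not carry the pairing of arrays described next. Residuals of same-numbered arrays correlated between 0.20 and 0.69 within an arm (12 of 12 pairs over 0.1). Across arms 4 of 18 same-numbered pairs exceeded 0.1, against 2 of 36 pairs with different numbers. Numbers thus pair arrays within an arm, and pairing across arms was not clear. Alternatives covered scaling, filter, probe sets, variance model, arrays in the fit, the replicate block and leaving out each array. Members past the threshold are named, with signals per array for the 6 largest in each 48-hour comparison, the 4 largest in the others and both LAMP genes; of each further list up to 4 genes with the lowest p are named, and genes called only in an alternative, and M6pr per array, were named after their values were seen. The members and lists were chosen with earlier results of these data known (Lamp1, Tpp1 and Hgsnat).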

Additional observations from a re-analysis of the deposited data

How the results depend on the processing

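Of the 420 refits of called lysosomal genes, 366 kept the direction and the call, 54 kept the direction and lost the call, and 0 changed direction. Under a replicate block fitted inside each arm, the wild-type IRE1a against EGFP count was 14 in place of 9; besides the calls named in the report, the block changed no other call of a lysosomal gene within an arm. Across arms, where pairing by number was not clear, the block gave 20 rises and 1 fall (Galns) in control hairpin against EGFP, with 20.7% of all genes called. Leaving out 1 array at a time, the counts ran from 7 to 9 for wild-type IRE1a against EGFP, from 5 to 6 for S724A IRE1a against EGFP, from 0 to 0 for wild-type IRE1a against S724A IRE1a and for the hairpins, and from 5 to 18 for control hairpin against EGFP. In that comparison the counts were 5 without control hairpin replicate 1, 7 without EGFP replicate 2 and 8 without EGFP replicate 3. The cause was not tested. The confidence interval of a lysosomal difference had a median half-width of 0.29, which takes no account of the adjustment over all genes, so larger differences could also miss the threshold; dim probe sets such as that of Ctss limit what their signals can show.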
